A study of Mus musculus with 8 samples.

Results

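The 10 pregranulosa transcription factors examined here were Foxl2, Wt1, Gata4, Gata6, Nr5a2, Emx2, Lhx9, Runx1, Irx3 and Irx5. They were chosen by gene symbol for their known place in the somatic cells of the fetal and newborn ovary. The choice was made with earlier results of these data known, so the counts and medians below describe the factors and are not an independent test. All 10 were among the 26586 genes of the count table, and all 10 were among the 13873 genes that were expressed highly enough to be tested. There were 4 control and 4 mitochondrial supplemented (mito-supplemented) RNA-Seq libraries, made from primordial follicles of mouse ovaries at postnatal day 3. The mice were of the C57Bl/6 x CBA background. By the study's methods, 1 further control library had been set aside by the authors as an outlier, and it was not analysed here. The mito-supplemented mice were the third generation descended from founders whose oocytes, from C57BL6/J/MARP x CBA/MARP F1 females, had received mitochondria of the same strain at fertilisation. By the paper, those oocytes were superovulated and fertilised by sperm injection, and the embryos were cultured, vitrified and transferred to surrogates. The control mice came from the same background without supplementation. For litter size the paper's controls were colony mice conceived by natural mating, and the sequenced controls are not described separately. Effects of these other steps and of the mitochondria cannot be told apart here. The comparison asked whether transcript levels in these follicles differed several generations after the supplementation. Each RNA sample pooled follicles picked by pipette from an enzyme-digested ovary, and a primordial follicle holds an oocyte and its pregranulosa cells together. The labels call the libraries biological replicates without saying which of them came from the same mouse or litter. Their sample codes share a first part in control replicates 1 and 2, in control replicates 3 and 4 and in mito-supplemented replicates 1, 2 and 3, whereas mito-supplemented replicate 4 has one of its own. What this first part stands for is not given in the sources used here, so libraries that share it may not be independent, and the p-values measure the spread between these samples.

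Pregranulosa cells are the flat somatic cells that enclose each oocyte of a primordial follicle. They arise from the bipotential gonad, whose outgrowth and survival depend on Wt1, Emx2, Lhx9 and the GATA factors, and they hold their female fate through Foxl2, with Runx1 acting beside it. Nr5a2 is a nuclear receptor best known in granulosa cells of growing follicles, and Irx3 and Irx5 are neighbouring homeobox genes needed for contact between granulosa cells and the oocyte.

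Total counts lay between 10370045 and 19760763 per library. The share of counts taken by the 2 ribosomal RNA genes Rnr1 and Rnr2 was 74.0% in control replicate 4 (Wilson 95% interval 73.99% to 74.04%, counting error only), against 14.9% to 44.3% in the other 7 libraries. Control replicate 4 held 2559876 counts outside the ribosomal RNA genes Rnr1, Rnr2, Rn45s and Rn18s, the fewest of the 8. Levels are in CPM, the count of a gene relative to the total of its library, scaled by edgeR's TMM factors. The summed level of the oocyte markers, here and below over the tested genes of a list, was 4318 CPM in control replicate 1 and between 147 and 939 CPM in the other 7. Red cell markers summed to 4160 CPM in control replicate 2, 2808 CPM in control replicate 3 and 5071 CPM in mito-supplemented replicate 1, and to 81.7 CPM or less elsewhere.

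The 10 factors together summed to 249.9, 254, 281 and 902 CPM in control replicates 1 to 4, and to 531, 1197, 757 and 1227 CPM in mito-supplemented replicates 1 to 4. Control replicates 1, 2 and 3 were lowest, and control replicate 4 lay within the mito-supplemented range on this scale. The TMM factor was 0.489 in control replicate 4 and from 0.909 to 1.39 in the other libraries. By total counts alone, control replicate 4, with 4569 counts of the factors in 10370045, lay below every mito-supplemented library. The lowest of that group was replicate 1, with 10949 in 19760763. Its place within that range thus rests on the scaling, here and for single factors. All 10 factors had a log2 fold change of mito-supplemented over control above 0, with that of Nr5a2 at 0.00 and, under RLE scaling, at -0.0153. Their median was 1.13, against -0.10 over all genes tested, and without control replicate 4 it was 2.01. None passed the quasi-likelihood test of edgeR, adjusted by the Benjamini-Hochberg method, in which 0 of 13873 genes (0%) were called at an adjusted p under 0.05. The lowest adjusted p was 0.626 among the factors and 0.418 over all genes. At an unadjusted p under 0.05, 5 of the 10 factors were higher in mito-supplemented libraries, namely Gata6, Lhx9, Runx1, Irx3 and Irx5, and 0 were lower, while over all genes 736 (5.31%) were higher and 333 (2.4%) were lower. The count of 5 factors became 2 without control replicate 1 or 2 and 1 without control replicate 3. It was 0 when mito-supplemented replicate 2 was left out and 3 when replicate 3 or 4 of that group was. The count rose to 7 without control replicate 4, against 12.6% of all genes, and to 6 without mito-supplemented replicate 1, against 14.1%. With single libraries left out, from 3.95% to 14.1% of all genes had such a p. The 1069 genes became 1863 with control replicate 4 left out, 2003 with mito-supplemented replicate 1 left out, and 572 and 636 with mito-supplemented replicates 2 and 4 left out. Scaled by library size alone, 1288 genes were higher and 53 lower at that p, and the median over all genes moved from -0.10 to 0.17. The median of the factors was then 1.73 and 7 of them had such a p, against 9.67% of all genes. With the counts summed over libraries that share a first part of the code, leaving 2 sums per group, 0 genes were called, the median of the factors was 1.62 and 6 of them had such a p, against 7.5% of all genes. In 1 of the 10 factors, Runx1, all mito-supplemented values exceeded all control values, a separation seen upward in 416 genes (3%) and downward in 282 (2.03%).

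The outcome of the test depended on the tool. The likelihood ratio test of edgeR called 58 genes (0.418%) and 0 of the factors, 6 of which had an unadjusted p under 0.05, against 9.2% of all genes. DESeq2 called 141 genes (1.02%) and 0 of the factors, again with 6 at that p, against 10.8% of all genes. With limma-voom and sample quality weights, 2913 genes (21%) were called, and 7 of the factors were among them, namely Wt1, Gata4, Gata6, Emx2, Lhx9, Irx3 and Irx5. Of the genes described further below, this setting also called Nr5a1, Smad3, Lgr5, Rspo1, Notch2, Upk3b, Aldh1a2 and Muc16, all higher in mito-supplemented libraries. These weights were 0.231, 1.83, 3.53 and 0.538 for control replicates 1 to 4 and 0.514, 2.27, 2.58 and 0.414 for mito-supplemented replicates 1 to 4. Controls 2 and 3 and mito-supplemented replicates 2 and 3 thus carried most of the weight. Without the weights, limma-voom called 0 genes, with 1426 genes (10.3%) and 6 of the factors at an unadjusted p under 0.05. Since the libraries are of bulk RNA, fewer cells of a type and less RNA per cell cannot be told apart in any of the values that follow.

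**Figure D1:**
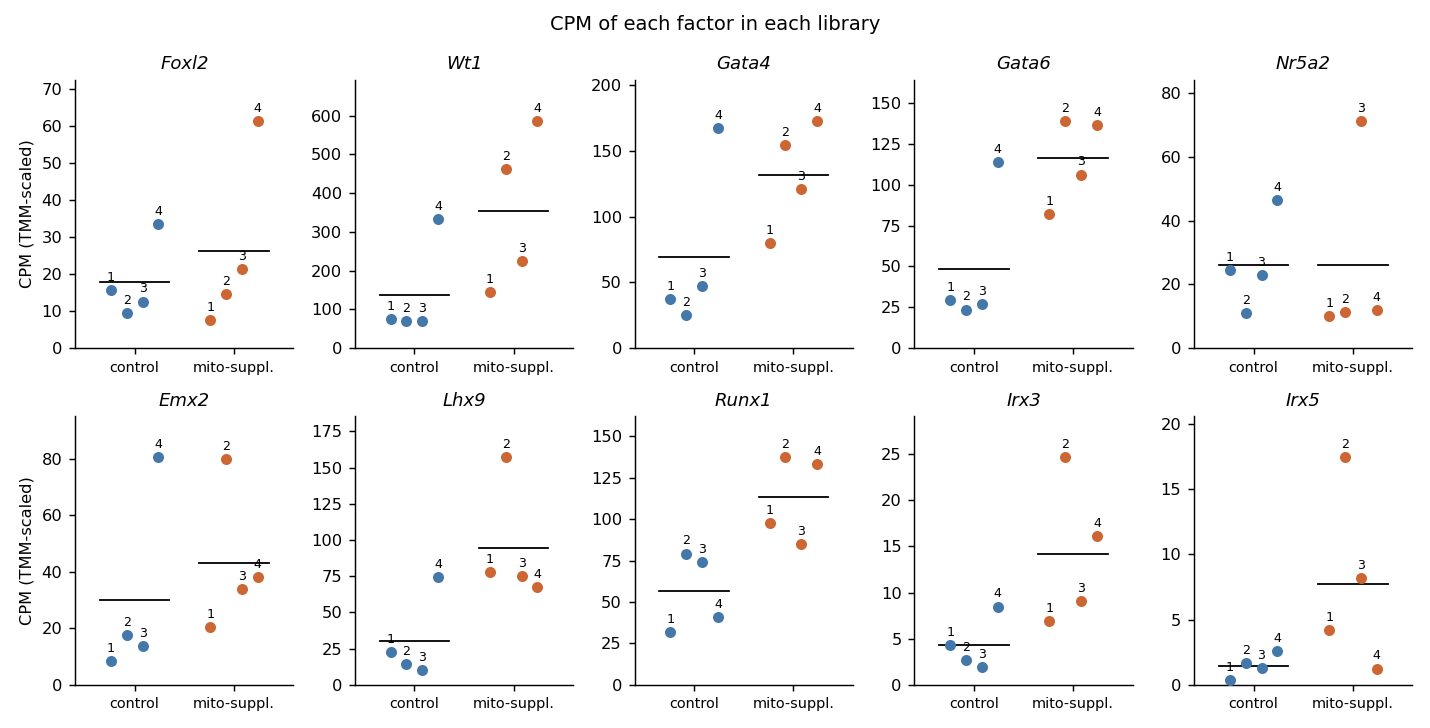
TMM-scaled CPM of each factor in each library, with replicate numbers beside the points and a line at the group mean (n = 4 per group). Each panel has its own linear axis from 0. Runx1 has groups that do not overlap, from 32.2 to 79.3 CPM in controls and from 85.2 to 137 CPM in mito-supplemented libraries.

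Wt1, a zinc finger factor without which the gonad does not form, lies at chr2:105126529-105173616 of GRCm38 on the plus strand. Its level was 74.8, 69.1, 70.6 and 333 CPM in control replicates 1 to 4 and 145, 462, 226 and 587 CPM in mito-supplemented replicates 1 to 4. Control replicates 1, 2 and 3 were within a few CPM of each other, and the remaining control, replicate 4, exceeded mito-supplemented replicates 1 and 3. The control mean was 137 ± 131 CPM and the mito-supplemented mean 355 ± 205 CPM (SD, n = 4 each). The log2 fold change was 1.37 ± 0.64 (SE), with an adjusted p of 0.655 in edgeR's quasi-likelihood test, and an exact two-sided permutation test of log2 CPM over the 70 assignments of the libraries gave p = 0.0857, where this design cannot give a p below 0.0286. Without control replicate 4 the log2 fold change was 2.33.

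Emx2, a homeobox factor of the urogenital epithelium, lies at chr19:59458372-59465357 on the plus strand. It had 8.41, 17.6, 13.9 and 80.5 CPM in the controls and 20.5, 79.9, 34.1 and 38.2 CPM in the mito-supplemented libraries, in replicate order. The highest value of all belonged to control replicate 4, and no mito-supplemented library exceeded it. Its log2 fold change was 0.53 ± 0.72 (SE; exact permutation p = 0.286), less than its error. Leaving out control replicate 4 gave 1.71, leaving out mito-supplemented replicate 2 gave 0.05, and leaving out control replicate 1, 2 or 3 gave 0.24, 0.34 or 0.29. The annotation places 264 bases of Emx2 exons opposite exons of the antisense gene Emx2os, and the strand setting of the counting was not stated, so reads from this overlap cannot be assigned. Emx2os itself had between 52 and 444 counts per library.

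Lhx9, a LIM homeobox factor of the gonadal surface and the cells beneath it, lies at chr1:138825186-138848577 on the minus strand. Its level was 22.9, 14.4, 9.89 and 74.4 CPM in the controls and 77.7, 157, 75.2 and 67.8 CPM in the mito-supplemented libraries. Mito-supplemented replicates 1, 2 and 3 lay above every control, and replicate 4 lay below control replicate 4 alone. The control mean was 30.4 ± 29.8 CPM and the mito-supplemented mean 94.4 ± 41.9 CPM (SD, n = 4 each). The log2 fold change was 1.64 ± 0.63 (SE), with p = 0.0263 unadjusted and 0.626 adjusted in edgeR's quasi-likelihood test and p = 0.0571 in the exact permutation test. Leaving out single libraries gave log2 fold changes from 1.29 to 2.60. The RefSeq start of Lhx9 used here, at chr1:138842444, lies inside the gene as annotated above, downstream of its 5′ end at 138848577. The stretch upstream of this RefSeq start is shown because it holds a match to a GATA-type motif, which is a description of its letters. It is chr1:138842458-138842694 of GRCm38.p6 (RefSeq), written 5′ to 3′ on the minus strand, and capitals mark a match to TGATAA in reverse, at positions -59 to -54 from the start.
Lhx9 upstream: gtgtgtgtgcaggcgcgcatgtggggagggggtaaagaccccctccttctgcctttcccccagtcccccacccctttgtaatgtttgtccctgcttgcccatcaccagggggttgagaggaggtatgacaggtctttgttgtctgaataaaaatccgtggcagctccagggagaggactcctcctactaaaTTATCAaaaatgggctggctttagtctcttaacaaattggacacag
AGATAA or TGATAA, searched on both strands, was present in 18.6% of the 32851 RefSeq promoter windows of 300 bases. It was in 3 of the 8 windows of the 6 factors searched, that of Lhx9 and both of Nr5a2. The chromosome of Gata6 was left out of the search of the factors, but not of the 18.6%.

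Foxl2, the forkhead factor that maintains granulosa cell identity, is a single-exon gene at chr9:98955288-98958543 on the plus strand. It had 15.7, 9.43, 12.6 and 33.6 CPM in control replicates 1 to 4 and 7.62, 14.5, 21.3 and 61.4 CPM in mito-supplemented replicates 1 to 4. The groups overlapped throughout: the lowest value of the 8 was mito-supplemented replicate 1 and the highest was mito-supplemented replicate 4. The control mean was 17.8 ± 10.8 CPM and the mito-supplemented mean 26.2 ± 24.1 CPM (SD, n = 4 each), and the log2 fold change of 0.56 ± 0.67 (SE) had an exact permutation p of 0.714. Its sign turned, to -0.26, without mito-supplemented replicate 4, and leaving out control replicate 4 gave 1.08, mito-supplemented replicate 1 0.90 and control replicate 2 0.35. Foxl2 shares 12 exonic bases with Foxl2os on the opposite strand, which had between 92 and 897 counts per library. Foxl2os was highest in mito-supplemented replicates 2 and 3, at 41.9 and 40.7 CPM, whereas it had 8.07 CPM in mito-supplemented replicate 4, where Foxl2 was highest.

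The genes most like Foxl2 were sought over the 8 libraries as those with the smallest root mean square difference in log2 CPM after each gene was centred on its own mean. The closest was Sec24d, a subunit of the COPII vesicle coat, at 0.24, followed by the growth factor Fgf2 at 0.28, the secreted guidance ligand Slit3 at 0.29 and the septin gene Sept11 at 0.29. Zfp422 at 0.30, Zfp59 at 0.31, the methionine sulfoxide reductase Msrb3 at 0.32 and Smad7, an inhibitor of TGF-beta signalling, at 0.33 completed the 8. Of the other factors, Gata4 was the closest to Foxl2, at 0.80, and Irx5 the farthest, at 1.88, which was also the largest difference of any pair among the 10.

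Runx1, a Runt domain factor expressed in fetal supporting cells and later in the granulosa lineage, lies at chr16:92601466-92826149 on the minus strand. Its level was 32.2, 79.3, 74.4 and 41.1 CPM in the controls and 97.5, 137, 85.2 and 133 CPM in the mito-supplemented libraries. Controls 1 and 4 were low and controls 2 and 3 were close to the lowest mito-supplemented library, replicate 3, but the groups did not overlap. The control mean was 56.7 ± 23.6 CPM and the mito-supplemented mean 113 ± 25.96 CPM (SD, n = 4 each). The log2 fold change was 1.00 ± 0.38 (SE), with p = 0.0255 unadjusted and 0.626 adjusted in edgeR's quasi-likelihood test, and the exact permutation p of 0.0286 is the smallest that this design can give. Runx1 was the factor with the narrowest spread over the 8 libraries, with an SD of 0.74 in log2 CPM. It was also the only one of the 10 in which control replicate 4 was not the highest control. Runx1 is expressed in blood cells as well, and controls 2 and 3, its highest controls, were those with high red cell and immune markers. Mito-supplemented replicate 1, highest in both marker lists at 5071 and 770 CPM, had less Runx1 than mito-supplemented replicates 2 and 4, which were low in both lists. Without controls 2 and 3 and mito-supplemented replicate 1, edgeR's quasi-likelihood test gave Runx1 a log2 fold change of 1.71 (adjusted p = 0.418). Without controls 1 and 4, its lowest controls, that test gave 0.56 (adjusted p = 0.418, unadjusted 0.139). Limma-voom with sample quality weights gave 0.59 without calling it. The part of blood cells in its values was not tested. Its exons overlap 106 bases of the antisense gene Gm26626.

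Nr5a2, the nuclear receptor known as LRH-1, lies at chr1:136842571-136960448 on the minus strand. It had 24.4, 10.9, 22.9 and 46.6 CPM in control replicates 1 to 4 and 9.95, 11.4, 71.5 and 11.8 CPM in mito-supplemented replicates 1 to 4. In 3 mito-supplemented libraries it was near the lowest control, and in the remaining library, replicate 3, it was the highest of all 8. The group means were accordingly the same, 26.2 ± 14.9 and 26.2 ± 30.2 CPM (SD, n = 4 each), with a log2 fold change of 0.00 ± 0.72 (SE; exact permutation p = 0.629). Without mito-supplemented replicate 3 it was -1.21, with an unadjusted p of 0.0599 in edgeR's quasi-likelihood test, and without control replicate 4 it was 0.46. That library, mito-supplemented replicate 3, was also highest for Amh and Fshr, genes of growing follicles that were too low to be tested, at 3.18 and 1.91 CPM (70 and 42 counts), against 2.17 and 0.343 CPM or less in the others. Cyp19a1, another such gene, had 2.31 CPM there on 51 counts and 2.96 CPM in control replicate 4 on 15 counts. The stretch upstream of the more distal RefSeq start of Nr5a2 is shown because its capitals mark 3 matches to AGATAA or TGATAA, all in reverse. It is chr1:136960449-136960698 of GRCm38.p6 (RefSeq), 5′ to 3′ on the minus strand. The window of the other Nr5a2 start, not printed, holds 1 match to TGATAA, at positions -5 to 0.
Nr5a2 upstream: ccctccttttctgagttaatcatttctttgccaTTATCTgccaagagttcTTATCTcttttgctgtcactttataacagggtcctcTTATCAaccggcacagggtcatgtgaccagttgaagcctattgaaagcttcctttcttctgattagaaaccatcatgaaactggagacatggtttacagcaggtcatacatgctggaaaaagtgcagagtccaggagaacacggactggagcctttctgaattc
Searched in the same way, TGTGGTT was in 5.27% of all windows and in 1 of the 8 windows of the factors, 1 of the 2 of Runx1. TAATTA was in 5.29% and in 1 of the 8, that of Emx2, while AAGGTCA, in 4.72%, and TGTTTAC, in 3.65%, were in 0 of the 8. A match describes the letters and is not evidence of binding.

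Irx3, an Iroquois homeobox factor, lies at chr8:91798525-91802067 on the minus strand. Its level was 4.27, 2.70, 1.94 and 8.49 CPM in the controls and 6.94, 24.7, 9.07 and 16.1 CPM in the mito-supplemented libraries. Only control replicate 4 overlapped the mito-supplemented group, lying above its replicate 1. The log2 fold change was 1.72 ± 0.65 (SE), with p = 0.0243 unadjusted and 0.626 adjusted in edgeR's quasi-likelihood test and p = 0.0571 in the exact permutation test. The exons of Irx3 overlap 124 bases of Irx3os on the opposite strand.

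Irx5, its neighbour at chr8:92357625-92376286 on the plus strand, had the lowest median level per length of exon of the 10 factors. It had 9, 21, 22 and 13 counts in the controls and 86, 252, 181 and 18 counts in the mito-supplemented libraries, or 0.369, 1.66, 1.26 and 2.57 CPM against 4.17, 17.5, 8.21 and 1.25 CPM. Mito-supplemented replicates 1, 2 and 3 lay above every control, whereas replicate 4 lay below 3 of the 4 controls. Its log2 fold change of 2.43 ± 0.94 (SE) was the largest of the 10, with an adjusted p of 0.626 in edgeR's quasi-likelihood test and an exact permutation p of 0.114. Irx3 minus Irx5, the difference in log2 CPM within a library, was 3.16, 0.66, 0.58 and 1.68 in the controls and 0.72, 0.50, 0.14 and 3.56 in the mito-supplemented libraries. Control replicate 1 and mito-supplemented replicate 4 stood high, on 9 and 18 counts of Irx5, where the prior count of 2 in the log2 CPM narrows the difference. The group means, 1.52 ± 1.20 and 1.23 ± 1.57 (SD, n = 4 each), differed by less than the spread (exact permutation p = 0.714, also after adjustment over the 2 pairs compared). The difference between the groups was -0.29, or -0.35 with a prior count of 0.5, and without control replicate 1 or mito-supplemented replicate 3 it was 0.26 or 0.07.

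Gata4, a zinc finger factor needed from the first thickening of the gonad, lies at chr14:63198922-63271692 on the minus strand. It had 37.2, 24.9, 47.0 and 167 CPM in the controls and 79.8, 154, 121 and 173 CPM in the mito-supplemented libraries. Control replicate 4 was second only to mito-supplemented replicate 4, and the other controls were below every mito-supplemented library. The log2 fold change was 0.94 ± 0.58 (SE; exact permutation p = 0.114), and without control replicate 4 it was 1.87.

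Gata6, its relative, which can stand in for Gata4 in part in granulosa cells, lies at chr18:11052064-11085635 on the plus strand. Its level was 29.7, 23.6, 26.9 and 114 CPM in the controls and 82.3, 139, 106 and 136 CPM in the mito-supplemented libraries in replicate order. Control replicate 4 exceeded mito-supplemented replicates 1 and 3, and the other controls were below every mito-supplemented library. The log2 fold change was 1.26 ± 0.54 (SE), with p = 0.0408 unadjusted and 0.636 adjusted in edgeR's quasi-likelihood test and p = 0.0857 in the exact permutation test. Without control replicate 4 it was 2.14. Of all pairs among the 10 factors, Gata4 and Gata6 were the closest, with a root mean square difference of 0.26 in centred log2 CPM. Gata4 minus Gata6 was 0.32, 0.08, 0.80 and 0.55 in the controls and -0.04, 0.15, 0.18 and 0.34 in the mito-supplemented libraries. The means of 0.44 ± 0.31 and 0.16 ± 0.16 (SD, n = 4 each) differed by -0.28, with an exact permutation p of 0.20, or 0.40 after adjustment over both pairs, and by -0.16 without control replicate 3. Exons of Gata6 overlap 93 bases of the opposite-strand gene 1010001N08Rik.

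**Figure D2:**
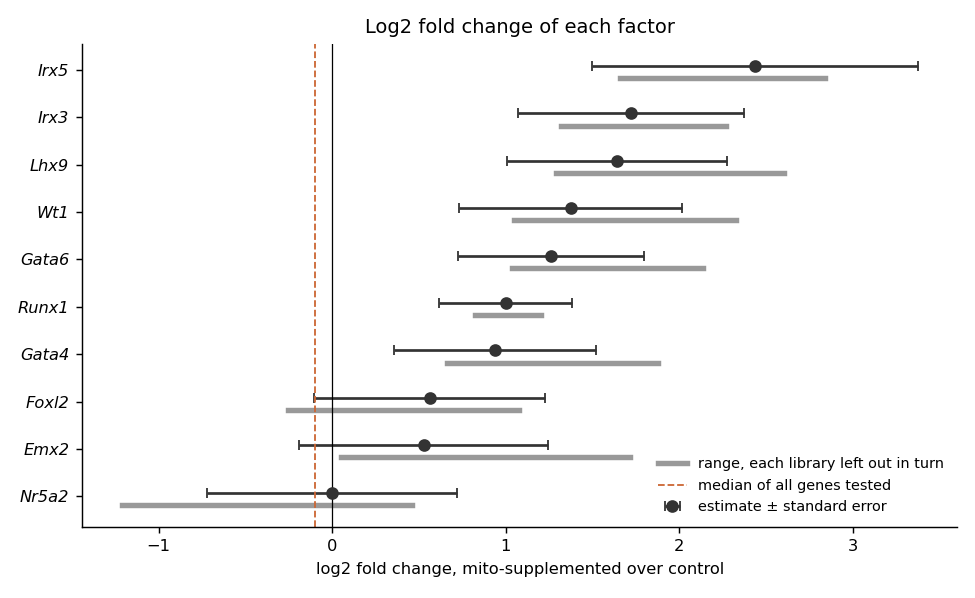
Log2 fold change of mito-supplemented over control for each factor, with its standard error (black, n = 4 per group) and the range with each library left out in turn (grey). Irx5 is highest at 2.43 and Nr5a2 lowest at 0.00, and the grey range reaches below 0 for Foxl2 and Nr5a2.

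**Figure D3:**
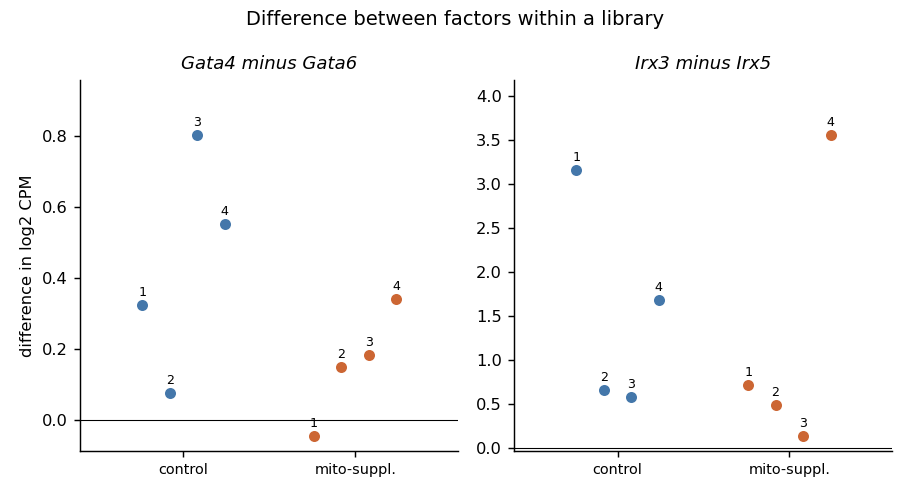
Difference in log2 CPM between 2 related factors within each library, with replicate numbers beside the points. Gata4 minus Gata6 spans -0.04 to 0.80, and for Irx3 minus Irx5 control replicate 1 and mito-supplemented replicate 4 lie above the rest.

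Per length of exon, as CPM divided by kilobases (RPKM), the factors ranked Wt1, Gata4, Gata6, Emx2, Lhx9, Runx1, Foxl2, Nr5a2, Irx3 and Irx5 by their median level over the 8 libraries. The median level was 29.9 RPKM for Wt1, 25.7 RPKM for Gata4 and 14.5 RPKM for Gata6. It was 9.09 RPKM for Emx2, 7.49 RPKM for Lhx9, 6.84 RPKM for Runx1 and 4.64 RPKM for Foxl2. The 3 lowest medians were 2.95 RPKM for Nr5a2, 2.79 RPKM for Irx3 and 0.676 RPKM for Irx5. Few steps of this order held in every library. Gata4 was above Gata6 and Irx3 above Irx5 in all 8 libraries, and Wt1 above Gata4 and Emx2 above Lhx9 in 7 of 8. Gata6 was above Emx2, and Lhx9 above Runx1, in 4 of 8, so these neighbours could not be ordered, and the remaining neighbours kept their order in 5 or 6 libraries. The order also differed between the groups. By the control median it ran Wt1, Gata4, Emx2, Runx1, Gata6, Foxl2, Nr5a2, Lhx9, Irx3 and Irx5, and by the mito-supplemented median Wt1, Gata4, Gata6, Emx2, Runx1, Lhx9, Foxl2, Irx3, Irx5 and Nr5a2. Lhx9 had a median of 1.96 RPKM in controls and 8.05 RPKM in mito-supplemented libraries, and Nr5a2 one of 4.02 and 1.97 RPKM.

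**Figure D4:**
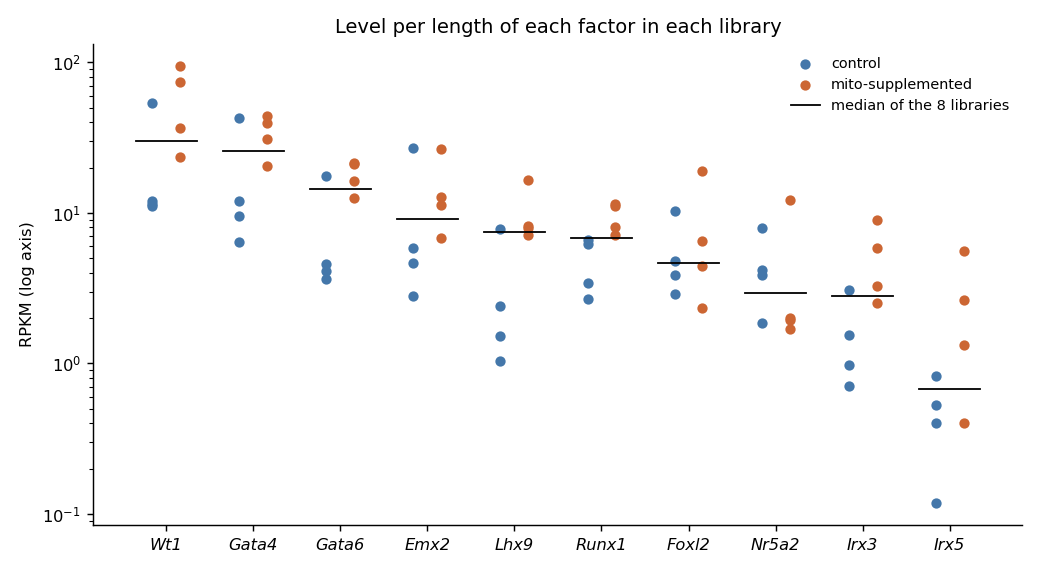
Level per length of each factor in each library on a log axis, with a line at the median of the 8 libraries. Medians run from 29.9 RPKM for Wt1 to 0.676 RPKM for Irx5, and libraries of either group spread over several-fold around most of them.

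Of 14 paralogues of the factors, 6 were high enough to be tested and 4, Irx1, Irx4, Irx6 and Foxl1, had 0 counts in all 8 libraries. None was called by edgeR's quasi-likelihood test, and the median log2 fold change of the 6 was -0.21, or from -0.66 to 0.15 with single libraries left out. Nr5a1, the steroidogenic factor of the gonad, had 7.51, 22.9, 7.78 and 6.71 CPM in the controls and 13.2, 27.4, 28.7 and 35.3 CPM in the mito-supplemented libraries. Its groups overlapped through control replicate 2. It was the only paralogue at an unadjusted p under 0.05, 0.0457, and its log2 fold change was 1.22 ± 0.53 (SE, adjusted p = 0.642 in edgeR's quasi-likelihood test), or 1.83 without control replicate 2. The erythroid factor Gata1 followed the red cell markers instead, at 35.9, 42.8 and 34.6 CPM in control replicates 2 and 3 and mito-supplemented replicate 1 and at 4.64 CPM or less in the others. Its log2 fold change was -0.88 ± 1.39 (SE), and from -2.79 to -0.19 with single libraries left out. That of Gata3 was 1.03 ± 1.00 (SE), and from 0.60 to 2.47 with single libraries left out, the highest without control replicate 4.

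Of 19 cofactors and partners, 17 were tested, 0 were called by edgeR's quasi-likelihood test and 0 reached an unadjusted p under 0.05 in it. Their log2 fold changes were above 0 in 10 and below 0 in 7, with a median of 0.32. This median was from 0.07 to 0.68 with single libraries left out. Scaled by library size alone it was 0.77, where the median over all genes was 0.17. Ctnnb1, which encodes beta-catenin of the Wnt pathway, had a log2 fold change of 0.37 ± 0.30 (SE) and Smad3, a mediator of activin and TGF-beta signals, 0.32 ± 0.56 (SE), and these were 0.62 and 1.08 without control replicate 4. With single libraries left out, Smad3 was lowest, at 0.07, without control replicate 2. Without control replicates 2 and 3 and mito-supplemented replicate 1 together, Smad3 was at -0.0179. Of 11 genes of the testis pathway, 7 were tested and 0 called by edgeR's quasi-likelihood test, with 4 above and 3 below 0. Their median was 0.01, or from -0.55 to 0.13 with single libraries left out and 0.48 when scaled by library size alone. At an unadjusted p under 0.05 there was 1, Fgf9, named after its values were seen, which was higher in mito-supplemented libraries and did not overlap. Sox9, which Foxl2 holds in check in the adult ovary, had 22.2 CPM in control replicate 3, 19.2 CPM in mito-supplemented replicate 4 and 7.34 CPM or less in the other 6 libraries. Its log2 fold change was 0.29 ± 1.07 (SE), and from -0.55 to 2.47 with single libraries left out, against -0.94 ± 0.54 (SE) for the kinase gene Map3k4 and -1.83 ± 1.07 (SE) for Ptgds, a prostaglandin synthase of the Sertoli lineage. Map3k4 and Ptgds were both highest in control replicate 1, at 227 and 52.7 CPM, and without it their log2 fold changes were -0.27 and -0.14.

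Of 23 genes of the female pathway and of granulosa cells, 20 were tested and 0 called by edgeR's quasi-likelihood test, and 17 had a log2 fold change above 0, with a median of 1.00, or 0.58 without mito-supplemented replicate 3. At an unadjusted p under 0.05, 7 were higher and 0 lower, and in 4, named after their values were seen as Lgr5, Star, Notch2 and Hes1, the groups did not overlap. Lgr5, a receptor for R-spondins carried by cells of the ovarian surface and by the pregranulosa cells that derive from it, had 21.1, 16.6, 9.44 and 82.5 CPM in the controls and 126, 268, 128 and 179 CPM in the mito-supplemented libraries. Its control replicate 4 was the highest control and lay below every mito-supplemented library, and the log2 fold change was 2.44 ± 0.66 (SE, adjusted p = 0.544 in edgeR's quasi-likelihood test). DESeq2 called Lgr5 at an adjusted p of 0.0340, limma-voom with sample quality weights called Lgr5, Rspo1 and Notch2, as given above, and over the alternatives its adjusted p ran from 0.0113 to 0.971. Rspo1, a ligand of the same pathway that drives ovarian fate, had a log2 fold change of 1.99 ± 0.56 (SE, adjusted p = 0.562 in edgeR's quasi-likelihood test), and its groups overlapped. Notch2, the receptor by which pregranulosa cells take part in breaking down germ cell cysts, had 67.9, 97.5, 98.1 and 75.4 CPM in the controls and 98.2, 168, 157 and 218 CPM in the mito-supplemented libraries. The lowest mito-supplemented value and the highest control value were nearly equal, and the log2 fold change was 0.92 ± 0.33 (SE, adjusted p = 0.626 in edgeR's quasi-likelihood test).

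Markers of other ovarian cells moved across the libraries as well. Surface epithelium markers, of which 9 of 10 were tested, had log2 fold changes above 0 in all 9, a median of 1.90 and 6 at an unadjusted p under 0.05, with 0 called by edgeR's quasi-likelihood test and 2, Upk1b and Cldn15, not overlapping. Their sum was 123, 46.4, 32.5 and 340 CPM in the controls and 254, 817, 322 and 623 CPM in the mito-supplemented libraries, so that controls 1 to 3 were low and control replicate 4 lay within the mito-supplemented range, as for the summed factors. Without control replicate 4 the median was 3.09. The most abundant of them, the uroplakin gene Upk3b, had a log2 fold change of 2.02 ± 0.75 (SE), with 1.71 ± 0.71 (SE) for the retinoic acid synthesis gene Aldh1a2 and 1.89 ± 0.81 (SE) for the mucin gene Muc16, and these were 3.36, 2.69 and 3.09 without control replicate 4. All 3 were called by limma-voom with sample quality weights. Wt1, Lhx9, Emx2, Gata4 and Lgr5 are expressed in the surface epithelium too, and the part of these cells in the values of the factors was not tested. Wnt7a, the marker not tested, had 4 counts over all 8 libraries.

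Stroma markers, 12 of 12 with a log2 fold change above 0 and a median of 0.75, summed to 453, 543, 835 and 2741 CPM in the controls and 1097, 1163, 3062 and 2579 CPM in the mito-supplemented libraries, led by Col3a1. This median moved to 1.62 when control replicate 4 was left out to 0.35 when mito-supplemented replicate 3 was and to 0.50 when control replicate 1 was. Smooth muscle markers, with 7 of 8 above 0 and a median of 0.64, summed to 62.7, 49.1, 105 and 547 CPM in the controls and 89.1, 144, 233 and 588 CPM in the mito-supplemented libraries, led by Mylk. The sign of this median turned, to -0.19, when mito-supplemented replicate 4 was left out. Leaving out control replicate 1, 2 or 4 gave 0.40, 0.37 or 2.10. In both, control replicate 4 and mito-supplemented replicate 4 were among the high libraries, as for Foxl2. Endothelial markers, with 5 of 8 above 0 and a median of 0.57, summed to 26.7, 28.4, 48.0 and 228 CPM in the controls and 97.0, 226, 188 and 205 CPM in the mito-supplemented libraries. Leaving out mito-supplemented replicate 3 gave a median of 0.07, control replicate 1 one of 0.31 and control replicate 4 one of 1.57. Scaled by library size alone, the medians were 1.33 for stroma, 1.37 for smooth muscle and 1.32 for endothelial markers, against 0.17 over all genes. Kdr was the most abundant of them, while Pecam1 and Cdh5, which define the endothelium, had at most 18.2 and 41.4 CPM. At an unadjusted p under 0.05 there was 1 gene of each of these last 2 lists, Lmod1 of smooth muscle and Esam of endothelium, both higher in mito-supplemented libraries. The part of these cells in the values of the factors was not tested.

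Oocyte markers had log2 fold changes below 0 in all 16 tested of 18, with a median of -1.73, 0 called by edgeR's quasi-likelihood test and 1, Kit, at an unadjusted p under 0.05. Their sum was 4318, 229, 213 and 789 CPM in the controls and 348, 245, 939 and 147 CPM in the mito-supplemented libraries, led by Nlrp5. Control replicate 1 alone set this direction: without it the median was 0.20. Control replicate 1, highest in oocyte markers, was lowest in the summed factors. Of the 4 libraries lowest in oocyte markers, control replicates 2 and 3 were low in the summed factors and mito-supplemented replicates 2 and 4 were the highest. The part of the oocyte share in the values of the factors was not tested. Without control replicate 1 the median log2 fold change of the factors was 0.97. Red cell markers, 5 tested of 10 with 0 above 0 and a median of -0.47, and immune markers, 6 tested of 10 with all 6 above 0 and a median of 0.90, were high in the same 3 libraries. Without mito-supplemented replicate 1 the medians were -5.68 for red cell markers and -1.97 for immune markers, so that this library alone set the direction of the immune markers. That of the red cell markers was 0.41 without control replicate 2. Their most abundant genes were Slc4a1, at 2998.5 CPM or less, and Lyz2, at 638 CPM or less, and the immune marker C1qb had 0 counts in all libraries. Without these 3 libraries the median of the factors was 0.95, and 1 factor, Runx1, had an unadjusted p under 0.05, against 10.8% of all genes.

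**Figure D5:**
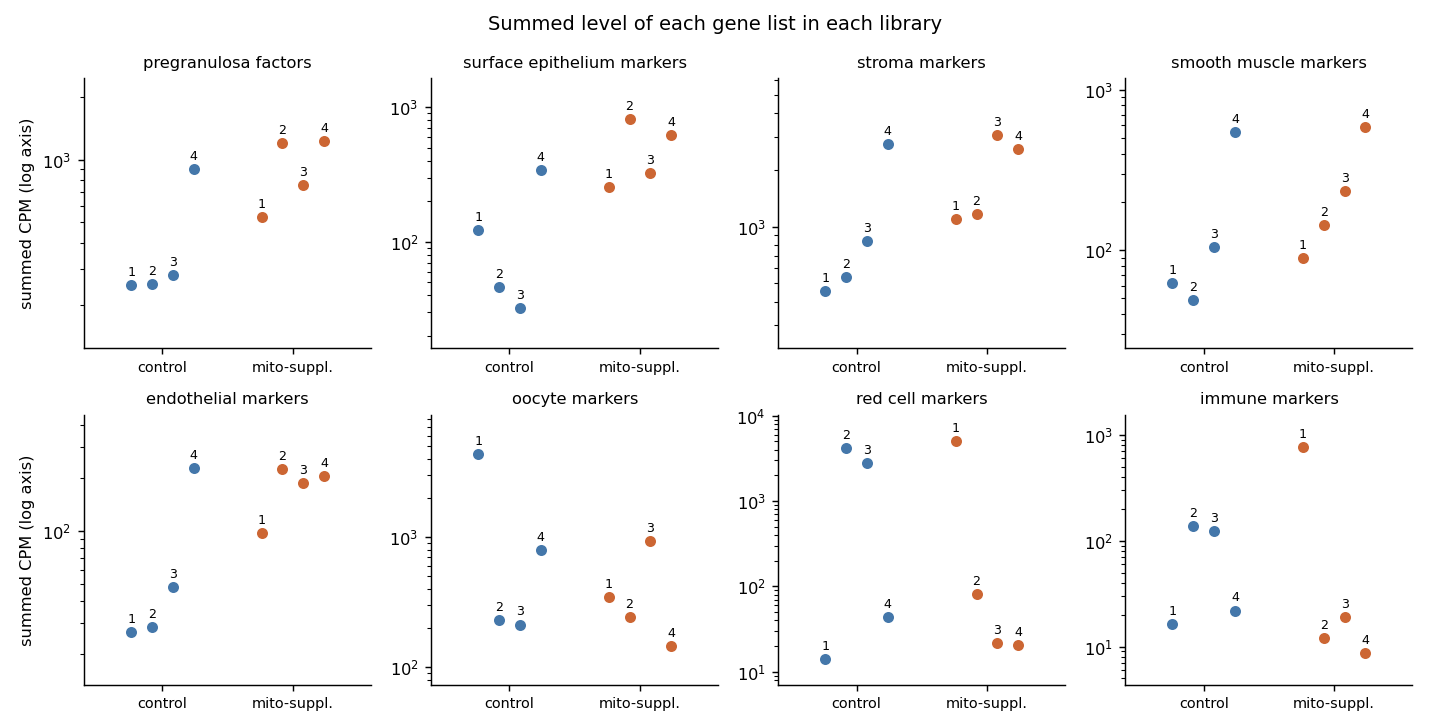
Summed TMM-scaled CPM of the factors and of 7 lists of cell type markers in each library, on log axes that differ between panels, with replicate numbers beside the points. Control replicate 4 is high for the factors and for the surface epithelium, stroma, smooth muscle and endothelial markers, and control replicate 1 is highest for the oocyte markers at 4318 CPM.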

How the data were processed

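The authors trimmed the reads with Trim Galore 0.4.4, mapped them to GRCm38 (mm10) with STAR 2.5.3a and counted them on genes with featureCounts, per the labels and the study's methods, and they tested with edgeR 3.20.9. The deposited values are raw read counts per gene symbol, and the strand setting and the annotation release are not given in the sources used here. Here edgeR 4.0.16 in R 4.3.3 was applied to all 8 libraries with TMM scaling, its default expression filter and its quasi-likelihood test, with Benjamini-Hochberg adjustment over the 13873 genes kept and a threshold of 0.05. Standard errors (SE) are the log2 fold change divided by the square root of F, and log2 CPM used a prior count of 2. The likelihood ratio test, which the study used, DESeq2 1.42.0 and limma 3.58.1 were alternatives, beside other scalings and filters, a replicate block, summed label codes and each library left out. RPKM used exon lengths of GENCODE M21, and coordinates are from the same annotation. Of the listed genes, 150 were found by symbol, 3 by an older symbol and 2 (Hbb-bt and Ahsp) were not matched. The factors and lists were chosen with earlier results of these data known. The genes named were the 10 factors, the 3 most abundant genes of each list, any list gene called, and the 8 genes most like Foxl2. No 2 libraries agreed within sampling noise. The scripts were tested on simulated counts that varied less between libraries than these data do. That test therefore does not cover a spread as wide as the one here.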

Additional observations from a re-analysis of the deposited data

Results flagged for a closer look

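In 48 groups of 4 values (each factor in log2 CPM, each list's summed CPM on the log2 scale and both within-library differences, in each group), 6 held a library far from the other 3, where chance gives about 1 in 20. Control replicate 4 stood apart in 3 of them. It had a log2 CPM of 8.38 for Wt1, with the nearest control at 6.23, a log2 CPM of 6.84 for Gata6, with the nearest at 4.90, and a log2 summed CPM of 9.82 for the 10 factors, with the nearest at 8.14. Mito-supplemented replicate 3 had a log2 CPM of 6.16 for Nr5a2, with the nearest mito-supplemented library at 3.58. Mito-supplemented replicate 2 had a log2 CPM of 7.30 for Lhx9, with the nearest at 6.28. Mito-supplemented replicate 4 had an Irx3 minus Irx5 difference of 3.56, with the nearest at 0.72, and rests on 18 counts of Irx5. Control replicate 4 is the library with 74.0% of its counts on Rnr1 and Rnr2, and the part of that in its values was not tested.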

How the results depend on the processing

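The log2 fold changes of Wt1, Gata4, Gata6, Emx2, Lhx9, Runx1, Irx3 and Irx5 were above 0 in the main analysis and in all 23 alternatives. Of 230 values of the 10 factors under alternatives, 212 kept their direction and their side of the threshold, 7 newly passed it and 11 changed sign, the last all in Nr5a2 and Foxl2. Over the 23 alternatives the values ran from 1.05 to 2.34 for Wt1, 0.56 to 1.87 for Gata4, 0.84 to 2.20 for Gata6, 0.05 to 1.71 for Emx2, 1.05 to 2.98 for Lhx9, 0.56 to 1.71 for Runx1, 1.32 to 2.61 for Irx3 and 1.66 to 2.99 for Irx5. Adjusted p values ran from 0.0113 to 0.971 for Gata6 and Lhx9 and from 0.130 to 0.971 for Runx1. The main test called 0 genes, against 58 with the likelihood ratio test, 141 with DESeq2 and 2913 with limma-voom and sample quality weights. That last setting also called 7 of the factors, with 5222 genes and 8 of the factors at an unadjusted p under 0.05, and 0 genes were called without the weights. An alternative without control libraries 1 and 4 gave 2722 genes at that p and a median of 2.03 for the factors, and one without the 3 red-cell-rich libraries gave 1 factor at that p, against 10.8% of all genes. These, limma-voom without weights and edgeR's non-legacy settings were chosen after seeing the data. With each library left out in turn, 572 to 2003 genes and 0 to 7 of the factors had an unadjusted p under 0.05, and the median log2 fold change of the factors ran from 0.97 to 2.01. No factor had such a p without mito-supplemented replicate 2. Irx3 minus Irx5 then differed between the groups by -1.07 to 0.26, above 0 without control replicate 1 (0.26) or mito-supplemented replicate 3 (0.07).

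Nr5a2 fell below 0 in its log2 fold change with the likelihood ratio test (-0.00025), DESeq2 (-0.016), limma-voom without weights (-0.23), RLE scaling (-0.0153), counts summed by label prefix (-0.0260) and without the 3 red-cell-rich libraries (-0.14). Over single libraries left out Nr5a2 lay between -1.21 and 0.46, and Foxl2 between -0.26 and 1.08. Over all 23 alternatives Nr5a2 reached 0.63, without control libraries 1 and 4, and Foxl2 reached 1.37, with counts summed by label prefix. Map3k4 was at 0.31 and Sox9 at -0.77 with limma-voom and weights, and at 0.39 and -0.50 without control libraries 1 and 4, where Ptgds was at 0.0832. Leaving out single libraries gave Sox9 values from -0.55 to 2.47. Gata1 was at 0.0208 with limma-voom without weights and at 2.48 without the 3 red-cell-rich libraries, where Smad3 was at -0.0179. The cause was not tested for any of these.

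The replicate numbers did not pair the libraries: deviations of same-numbered libraries correlated at -0.24, -0.19, -0.33 and 0.22 for numbers 1 to 4, and only number 4 matched its own number best. With a replicate block 0 genes were called, 981 genes and 6 of the factors had an unadjusted p under 0.05, and Nr5a2 was at -0.43. Control replicate 4, with 2559876 counts outside ribosomal RNA genes, had the fewest of the 8 libraries.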
